A study of Mus musculus with 16 samples.

Results

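Elastic fibres give arteries, lung and skin their recoil, and in the liver they lie around portal tracts and vessels and build up in scars. A fibre has a core of crosslinked elastin on a scaffold of microfibrils, which are strings of fibrillin carrying associated glycoproteins. Fibulins and emilin hold core and scaffold together, lysyl oxidases crosslink the elastin, and the microfibrils also store TGF-beta in its latent form. In injured liver these proteins are made mainly by fibroblast-like cells, portal fibroblasts and activated stellate cells among them.

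The 10 genes described here were fixed by name: the elastin gene Eln, the fibrillins Fbn1 and Fbn2, the microfibril-associated Mfap2, Mfap4 and Mfap5, the fibulins Fbln1, Fbln2 and Fbln5, and Emilin1. All 10 were on the array, among 36450 gene symbols. Of these symbols 24356 were bright enough to test, and 9 of the 10 members passed that filter, Mfap5 being the exception.

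Liver RNA was profiled in mice given CCl4, a solvent that scars the liver, to see what differs when the gene for lipocalin 2, a small secreted protein, is absent. The mice were male BALB/c, an inbred strain, 6 to 8 weeks old before treatment, and were either WT or Lcn2-/-, with no tissue restriction of the deletion stated. The CCl4 groups were injected with 0.5 ml/kg CCl4 in corn oil 2 times a week for 4 weeks and killed 48 h after the last dose, and the control groups received corn oil. The control groups held 4 WT and 3 Lcn2-/- samples and the CCl4 groups 5 WT and 4 Lcn2-/- samples, each on 1 array. The labels number replicates without naming animals, so p-values measure only the spread between these samples, which may be technical.

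Values are log2 of quantile-normalized signal, a difference of 1 being a doubling. The share of spots well above background ran from 51.6% to 60.9%, and r across genes between arrays of a group from 0.974 to 0.992. The libraries labelled Lcn2-/- had less Lcn2 signal, with a log2 difference of -4.15 in controls (adjusted p = 0.0214) and -3.33 under CCl4 (adjusted p = 0.0397), though its probe remained well above background on each of them. All 7 hepatocyte markers were well above background, and their summed level lay between 20.80 and 21.12 on every array. Very bright genes such as Alb (mean 18.93 in WT controls) carry that sum, and quantile normalization gives all arrays the same spread of values. Its narrow range is therefore no measure of hepatocyte content. The arrays sat on 2 slides. All control arrays and WT CCl4 replicate 1 shared the first, and the other CCl4 arrays shared the second, so the CCl4 comparison lies almost wholly between slides and the genotype comparisons almost wholly within them. On each slide the genotypes occupied different rows of arrays, apart from WT CCl4 replicate 1, so row position and genotype cannot be told apart in controls nor, that array aside, under CCl4.

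In WT mice 7 of the 9 tested members were higher after CCl4 (adjusted p under 0.05, limma), against 8.05% of all genes tested, and none was lower. In Lcn2-/- mice 7 of 9 were higher, against 6.56% of all genes. Eln, Fbn1, Fbln5, Mfap2, Mfap4 and Emilin1 rose in both, by 2.40-fold to 7.61-fold. The median log2 difference of the members was 1.43 in WT and 1.75 in Lcn2-/-, while that of all genes tested was -0.03 and -0.02. The levels of 7 members did not overlap between control and CCl4 in WT (8.08% of all genes were higher without overlap), and those of 8 members in Lcn2-/- (12.1% of all genes).

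**Figure D1:**
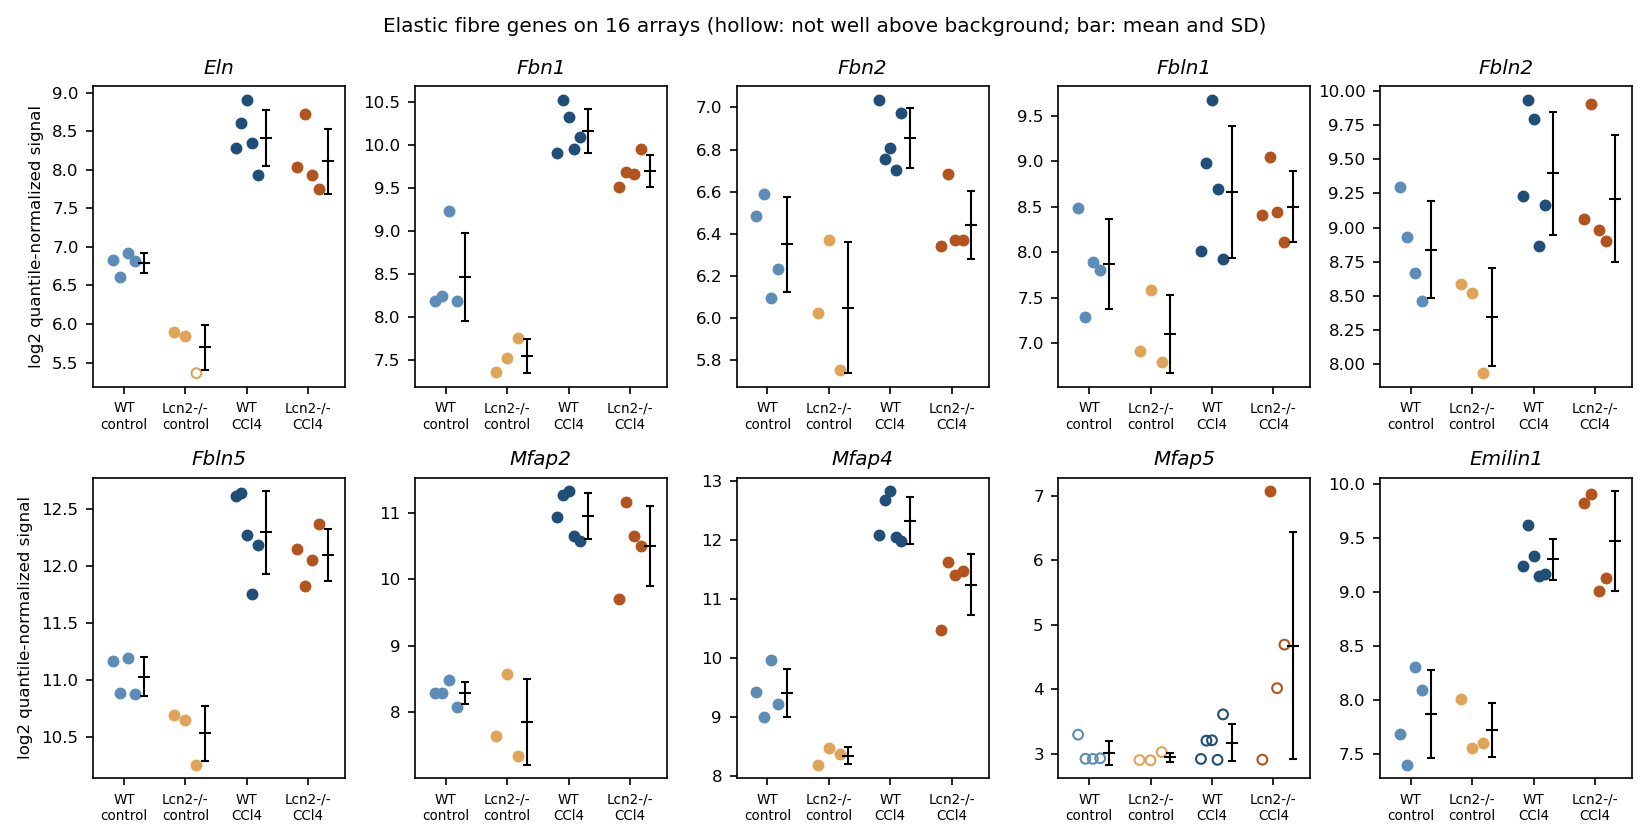
Level of each elastic fibre gene on each of the 16 arrays, as log2 quantile-normalized signal on an axis of its own; each point is an array, a hollow point is not well above background, and the bar gives the mean and SD. Eln, Fbn1, Fbln5, Mfap2, Mfap4 and Emilin1 sit higher in every CCl4 array than in every control array, and Mfap5 is well above background on 1 array.

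Elastin itself was among the members that rose. Its probe matches chr5:135179129-135179188 on the minus strand (mm9). The first 30 of its 60 bases are shown because this probe carries every Eln value given here.
Eln: ataccggaagccttgacgatggatttggtg
In WT controls Eln measured 6.83, 6.61, 6.92 and 6.82. The Lcn2-/- controls measured 5.89, 5.84 and 5.36, the last of which was not well above background. After CCl4 the WT arrays rose to 8.28, 8.61, 8.91, 8.35 and 7.94, and the Lcn2-/- arrays to 8.03, 8.72, 7.93 and 7.75. The 4 groups thus stood in the order Lcn2-/- control, WT control, Lcn2-/- CCl4 and WT CCl4, with overlap only between the last pair. Eln rose by 1.63 ± 0.21 (log2 difference ± SE) in WT, or 3.09-fold (adjusted p = 0.000141). It rose by 2.41 ± 0.24, or 5.32-fold, in Lcn2-/- (adjusted p = 3.21e-05). With normexp background correction, which pulls dim signals together, the Lcn2-/- rise was 1.50 (adjusted p = 0.000144).

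The fibrillins, which polymerise into the microfibril, differed in how far they moved. Fbn1 encodes the main fibrillin of adult tissue, and Fbn2 a form made mostly during development. WT controls measured 8.20, 8.25, 9.24 and 8.19 for Fbn1, and Lcn2-/- controls 7.36, 7.53 and 7.76. With CCl4 the WT arrays lay between 9.92 and 10.53 and the Lcn2-/- arrays between 9.51 and 9.95, above every control. WT control replicate 3, the high one, also stood apart over all genes, at -0.48 on the first principal component (40.1% of the variance) against -75.4 to -40.9 for the other WT controls and 16.7 to 70.7 for the CCl4 arrays. Lcn2-/- control replicate 3, at -43.2 against -94.7 and -87.9, lay on the same side of its group. Without both, Fbn1 rose by 1.95 in WT (adjusted p = 4.69e-06) and 2.26 in Lcn2-/- (adjusted p = 1.59e-05). With all arrays Fbn1 rose by 1.70 ± 0.21 in WT (adjusted p = 8.69e-05) and by 2.15 ± 0.24 in Lcn2-/- (adjusted p = 6.39e-05). Fbn2 moved by less. It lay at 6.09 to 6.59 in WT controls and at 6.70 to 7.04 in WT CCl4, a rise of 0.50 ± 0.14 (adjusted p = 0.0264). In Lcn2-/- mice it lay at 5.75 to 6.37 in controls and 6.34 to 6.69 after CCl4, and its difference of 0.39 ± 0.16 did not pass the test (adjusted p = 0.135). The WT call for Fbn2 was lost when WT control replicate 3 or 4 or WT CCl4 replicate 1 or 5 was left out, with adjusted p between 0.0549 and 0.0693. With normexp background correction the WT rise of Fbn2 was 0.28 (adjusted p = 0.0373).

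Of the microfibril-associated glycoproteins, Mfap2 and Mfap4 rose in both genotypes and Mfap5 was too dim to test. Mfap4, a fibrinogen-related glycoprotein that binds elastin and microfibrils, measured 9.42, 9.0, 9.96 and 9.21 in WT controls and 8.19, 8.47 and 8.36 in Lcn2-/- controls. After CCl4 it reached 12.09, 12.68, 12.83, 12.06 and 11.98 in WT and 10.48, 11.62, 11.40 and 11.47 in Lcn2-/-. No pair of groups neighbouring in the order of levels overlapped. The rise was 2.93 ± 0.26, or 7.61-fold, in WT (adjusted p = 7.1e-06) and 2.90 ± 0.30, or 7.48-fold, in Lcn2-/- (adjusted p = 3.37e-05). Only 0.509% of all genes tested had a higher WT difference than Mfap4.

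Mfap2, a small glycoprotein that binds fibrillin and TGF-beta, was read by 2 probes on chromosome 4, and both are shown with Mfap4 because the size of the Mfap2 rise depends on the probe. Each line gives 30 of the 60 probe bases, 5′ to 3′, with the letters AATAAA of the polyadenylation signal in capitals; 10.1% of all gene probes hold these letters. The positions are chr4:140571828-140571887 for the first, chr4:140570920-140570979 for the second and chr11:61302147-61302206 for Mfap4, all on the plus strand (mm9).
Mfap2 first probe: tttatacaaaatAATAAAagtttttacaaa
Mfap2 second probe: gtgcacccgcctctactccatccacaagcc
Mfap4: agcagaggtctcAATAAActtcaggatctg
With the first and brighter probe, Mfap2 lay at 8.08 to 8.49 in WT controls, 10.58 to 11.32 in WT CCl4, 7.35 to 8.57 in Lcn2-/- controls and 9.70 to 11.15 in Lcn2-/- CCl4. It rose by 2.66 ± 0.29 in WT (adjusted p = 3.14e-05) and by 2.65 ± 0.33 in Lcn2-/- (adjusted p = 0.000153). The second probe rose by 0.76 ± 0.11 in WT and 1.03 ± 0.13 in Lcn2-/- (adjusted p = 0.000458 and 0.000213 in a fit over all probes). With the mean of both probes the WT rise was 1.71. In controls the second probe did not overlap between genotypes (-0.46, adjusted p = 0.202), whereas the first did. Both probes thus passed the test in both genotypes, the first with more than double the log2 rise of the second. Mfap5, a relative of Mfap2, was well above background on 1 of 16 arrays, Lcn2-/- CCl4 replicate 2, at 7.07, and no fold is given.

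The fibulins bridge elastin, microfibrils and basement membrane, and Fbln5 passed the test in both genotypes, Fbln1 in Lcn2-/- alone and Fbln2 in neither. Differences between fibulins were not tested, and their intervals overlap. Fbln5, a protein needed to assemble elastic fibres that binds both tropoelastin and the crosslinking enzyme Loxl1, lay at 10.88 to 11.19 in WT controls and 11.76 to 12.65 in WT CCl4. In Lcn2-/- mice it lay at 10.26 to 10.69 in controls and 11.82 to 12.37 after CCl4. Fbln5 rose by 1.27 ± 0.18 (adjusted p = 0.000257) and 1.57 ± 0.20 (adjusted p = 0.000232). Fbln1, found in elastic fibres and basement membranes, overlapped between the WT groups, with 7.29 to 8.49 in controls and 7.93 to 9.68 after CCl4. Its WT difference of 0.79 ± 0.35 did not pass (adjusted p = 0.138). In Lcn2-/- mice Fbln1 lay at 6.92, 7.59 and 6.79 in controls and at 8.41, 9.05, 8.44 and 8.11 after CCl4, a rise of 1.40 ± 0.39 (adjusted p = 0.0321). That call was lost without Lcn2-/- control replicate 1 or 3 or Lcn2-/- CCl4 replicate 1, 2 or 3, with adjusted p between 0.056 and 0.116. A second, dimmer Fbln1 probe gave 0.99 in WT (adjusted p = 0.247). In Lcn2-/- it gave a bound of at least 1.77-fold (adjusted p = 0.078), since it was well above background on 0 of 3 controls. Fbln2, which sits at the edge of elastic fibres and in basement membranes, measured 8.46 to 9.29 in WT controls against 8.86 to 9.94 in WT CCl4, and 7.93 to 8.58 against 8.90 to 9.90 in Lcn2-/-. Its differences were 0.56 ± 0.27 (adjusted p = 0.173) and 0.87 ± 0.30 (adjusted p = 0.0791). The Lcn2-/- arrays of Fbln2 did not overlap although the call was missed. With replicate number as a block Fbln2 passed, at 1.01 and adjusted p = 0.0242. Same-numbered Lcn2-/- control and CCl4 arrays hardly deviated together, however (r of 0.008, 0.019 and 0.010), so the numbers do not pair them.

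Emilin1, which sits between elastin and microfibril and restrains the maturation of TGF-beta, measured 7.68, 7.40, 8.30 and 8.09 in WT controls and 8.01, 7.56 and 7.60 in Lcn2-/- controls. It reached 9.24, 9.62, 9.33, 9.15 and 9.17 in WT CCl4 and 9.82, 9.91, 9.01 and 9.13 in Lcn2-/- CCl4. The rise was 1.43 ± 0.22 in WT (adjusted p = 0.000485) and 1.75 ± 0.25 in Lcn2-/- (adjusted p = 0.0005). Emilin1 was the only tested member whose mean after CCl4 was higher in Lcn2-/- than in WT.

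**Figure D2:**
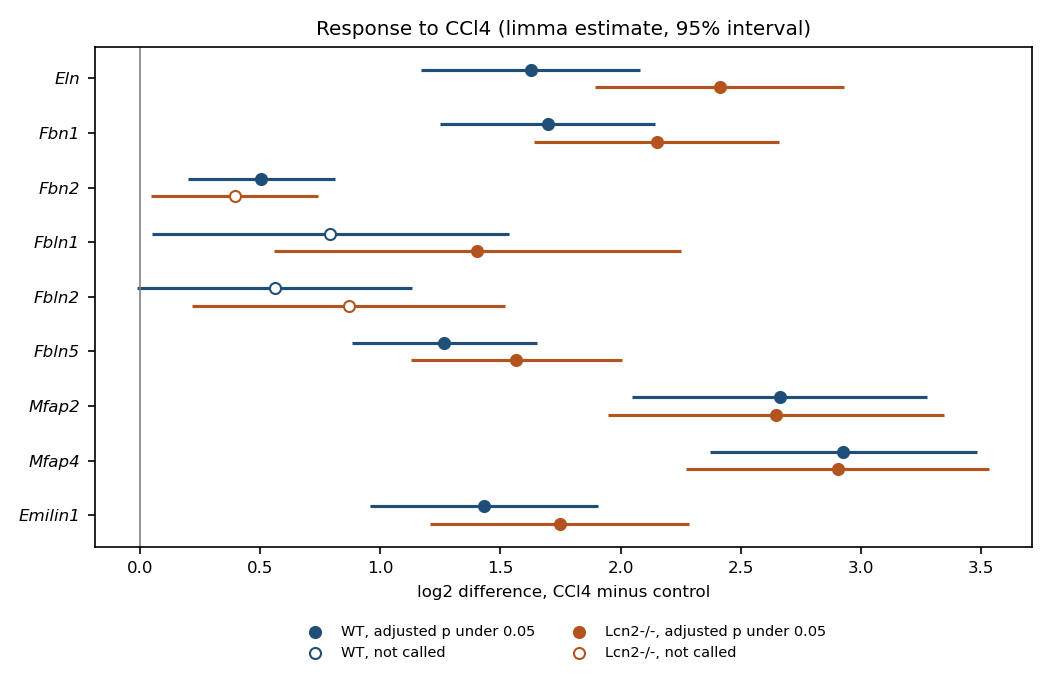
Log2 difference between CCl4 and control for the 9 tested members in WT and Lcn2-/- mice, with 95% intervals from limma; filled points have adjusted p under 0.05. The estimates run from 0.39 for Fbn2 in Lcn2-/- mice to 2.93 for Mfap4 in WT mice, and the WT and Lcn2-/- intervals overlap for every member.

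The exact two-sided permutation p was 0.00794 for each of the 7 WT calls and 0.0286 for each of the 7 Lcn2-/- calls, the smallest these numbers of arrays allow. On the first slide, WT CCl4 replicate 1 lay above the mean of the WT controls for all 9 members, by 0.14 to 2.69, and above each of them for 7. The shares of all genes placed so on that array are not given, so these counts describe the members only. With slide as a block the CCl4 difference rests on that 1 array: the WT value is its difference from the WT controls, the Lcn2-/- value depends on it through the shift between slides, and the test assumes that it varies like the other arrays. In that fit 5 members were called higher in each genotype, against 3.31% of all genes in WT and 1.38% in Lcn2-/-. Emilin1 missed the threshold in both, with differences of 1.37 (adjusted p = 0.0552) and 1.68 (adjusted p = 0.0884), as did Fbn2 in WT with 0.69 (adjusted p = 0.121) and Fbln1 in Lcn2-/- with 0.59 (adjusted p = 0.717). Without that array, so that all CCl4 arrays came from the second slide, 6 and 7 members were called higher, against 6.93% and 6.5% of all genes.

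In bulk liver, fewer cells of a type and less RNA per cell cannot be told apart. Some markers of portal fibroblasts, myofibroblasts, stellate cells, macrophages, mesothelium and cholangiocytes moved with the members. All 6 portal fibroblast markers (Thy1, Entpd2, Cd34, Dpt, Clec3b and Pi16) were well above background on every array. Their summed level lay at 12.24 to 13.40 in WT controls, 11.72 to 12.18 in Lcn2-/- controls, 13.97 to 14.45 in WT CCl4 and 13.20 to 14.10 in Lcn2-/- CCl4, with 4 of 6 higher after CCl4 in each genotype. The summed level of 7 myofibroblast markers ran from 15.25 to 16.55, 15.11 to 15.19, 17.07 to 18.37 and 16.76 to 17.59 in the same order of groups, with 4 of 7 higher in each genotype. Of these markers 3 are fibrillar collagen genes. Tagln had lower means after CCl4 (14.53 to 13.74 in WT, 14.42 to 13.56 in Lcn2-/-), not called, and Acta2 moved little (10.01 to 10.38 and 9.32 to 9.71). The portal fibroblast and myofibroblast sums stand in the same order of means as most members, as do the cholangiocyte and vascular smooth muscle sums. Of 8 stellate cell markers 5 were higher and 1, Ecm1, was lower in each genotype, with median differences of 0.93 and 0.91. Their summed level was instead lower after CCl4, at 16.37 to 16.67 and 16.44 to 16.72 in WT and Lcn2-/- controls and 16.04 to 16.41 and 16.15 to 16.34 after CCl4. Ecm1 carries most of that sum, with a mean of 16.06 in WT controls against 16.52 for all 8. Of 5 macrophage markers 3 were higher in each genotype and 1, Clec4f, was lower in WT, with median differences of 2.12 and 1.84. Of 3 mesothelium markers 2 were higher in WT and 1 in Lcn2-/-, with medians of 1.81 and 1.93. Of 5 cholangiocyte markers 1 was higher in each genotype, with medians of 0.42 and 1.07. Their summed level had means of 12.96 and 12.41 in WT and Lcn2-/- controls against 14.47 and 14.37 after CCl4. Spp1 carries most of that sum, with a mean of 12.72 in WT controls. The part of these cells in the results was not tested. Summed vascular smooth muscle markers lay at 11.13 to 11.54 and 11.09 to 11.36 in the controls and at 11.22 to 12.43 and 11.50 to 11.81 after CCl4, and 0 of 4 were called. Smtn carries most of that sum, with a mean of 11.09 in WT controls against 11.42 for all 4. Summed vascular endothelium markers lay between 11.92 and 12.88 on all arrays, with 0 of 3 called.

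No member passed the test between genotypes, in controls or under CCl4. In controls the means of all 9 members were lower in Lcn2-/- than in WT, with a median log2 difference of -0.50 against -0.01 for all genes tested. The number called was 0, against 0.292% of all genes called lower, and 4 members had an unadjusted p under 0.05, against 8.31% of all genes. Under CCl4 the means of 8 of 9 were lower, with a median of -0.31 against -0.01. There too 0 were called, against 0.345% of all genes, and 3 had an unadjusted p under 0.05, against 13.6% of all genes. Without overlap between genotypes were 4 members in controls (5.58% of all genes were lower without overlap) and 2 under CCl4 (3.35%). These comparisons share no arrays with each other, but each shares its arrays with the CCl4 comparisons above. Some marker lists had negative medians too. In controls they were -0.74 for portal fibroblasts, -0.74 for myofibroblasts and -0.65 for vascular smooth muscle. Under CCl4 they were -0.40, -0.68 and -0.99, and 0 markers of these lists were called in either comparison. Macrophage medians were -0.34 in controls, with 1 of 5 called lower, and -0.63 under CCl4, with 0 called. Cholangiocyte medians were -0.46 and 0.04 and sinusoidal endothelium medians -0.27 and 0.07, with 0 called. Stellate cell medians were -0.18 and -0.02, hepatocyte medians 0.06 and -0.06 and mesothelium medians 0.23 and 0.36. Whether these go with the members was not tested.

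**Figure D3:**
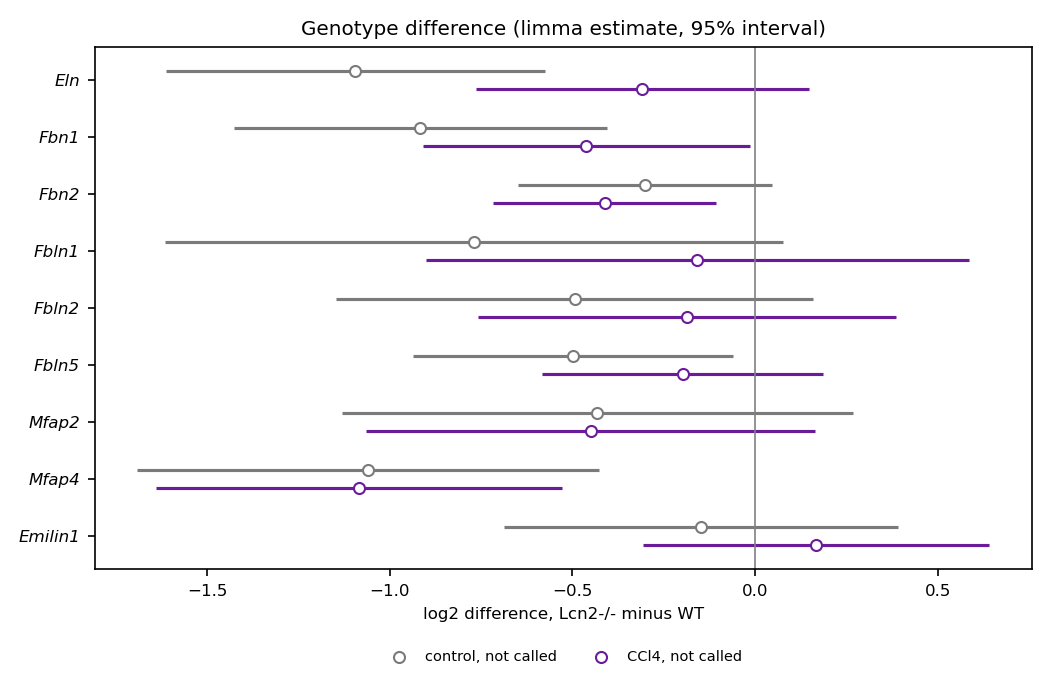
Log2 difference between Lcn2-/- and WT for the 9 tested members in controls and under CCl4, with 95% intervals from limma; every point is hollow because no adjusted p was under 0.05. Estimates lie below 0 for 9 members in controls and for 8 under CCl4, and Mfap4 lies near -1 in both.

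Mfap4 had the lowest estimate under CCl4, -1.08 ± 0.26 with a 95% interval from -1.64 to -0.53 and an adjusted p of 0.0854. The highest Lcn2-/- CCl4 array, at 11.62, was below the lowest WT CCl4 array, at 11.98, and the exact two-sided permutation p was 0.00794, the smallest possible. WT CCl4 replicate 1, which lay on the other slide in the same row as the Lcn2-/- controls, measured 12.09. Among arrays of the second slide alone the Mfap4 difference was -1.14. In controls it was -1.06 ± 0.30 (adjusted p = 0.18), again without overlap.

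Eln differed by -1.09 ± 0.24 in controls, from 6.79 ± 0.13 (SD, n = 4) in WT to 5.70 ± 0.29 (SD, n = 3) in Lcn2-/- (adjusted p = 0.0715). With normexp background correction it was -0.52 (adjusted p = 0.336). Under CCl4 the Eln difference was -0.31 ± 0.21 (adjusted p = 0.549), with an interval from -0.76 to 0.15. Fbn1 differed by -0.92 ± 0.24 in controls (adjusted p = 0.132) and by -0.46 ± 0.21 under CCl4 (adjusted p = 0.354). Fbn1 lies on the same chromosome as the deleted gene, 92.9 Mb from the Lcn2 probe. Fbn2 did not overlap between genotypes under CCl4, with a difference of -0.41 ± 0.14 (adjusted p = 0.238), and Fbln5 did not in controls, at -0.50 ± 0.20 (adjusted p = 0.49). The remaining differences lay between -0.77 and -0.15 in controls and between -0.45 and 0.17 under CCl4. Giving each array a weight by its quality changed the controls: Eln (-0.96, adjusted p = 0.00668), Fbn1 (-0.89, adjusted p = 0.00856) and Mfap4 (-1.10, adjusted p = 0.0118) then passed, while the share of all genes called lower rose from 0.292% to 2.97%. Leaving out Lcn2-/- CCl4 replicate 2 also brought Eln past the threshold (adjusted p = 0.0261).

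The size of the CCl4 response itself was compared between genotypes by the interaction term. No member passed, against 0.0534% of all genes called in either direction. Eln gave a response larger by 0.79 ± 0.32 in Lcn2-/- mice (unadjusted p = 0.0286, adjusted p rounding to 1), and was the 1 member with an unadjusted p under 0.05, against 3.31% of all genes. With normexp background correction the Eln estimate was 0.31, below the 0.44 of Fbln1. Mfap2 and Mfap4 gave -0.02 ± 0.43 and -0.02 ± 0.39, with intervals from -0.95 to 0.91 and from -0.87 to 0.82, so differences of nearly double in either direction remain within the error. Fbn2, called in WT and not in Lcn2-/-, gave -0.11 ± 0.22, and Fbln1, called in Lcn2-/- and not in WT, gave 0.61 ± 0.53, so neither is shown to respond differently.

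Across the 16 arrays, the 5 genes outside the members whose levels followed Eln most closely were Loxl1 (r = 0.980), Gpnmb (r = 0.976), Gpr153 (r = 0.973), Pdgfrb (r = 0.970) and Fzd2 (r = 0.969). The arrays fall into groups and share their normalization, so these r values largely follow the groups. Pdgfrb is one of the stellate cell markers and Gpnmb one of the macrophage markers, and Gpnmb was well above background on 0 of 3 Lcn2-/- controls. After the group means were removed, r with Eln was 0.831 for Loxl1 and 0.603 to 0.781 for the others. Among the 24355 other genes Mfap4 ranked 27 by r with Eln, Mfap2 48, Fbn1 80, Fbln5 206, Emilin1 235, Fbln1 422, Fbln2 770 and Fbn2 1291. Among members alone, Eln within groups went most closely with Fbln1 (r = 0.809) and Fbln2 (r = 0.745), and least with Fbln5 (r = 0.027). Of the 36 pairs of members 32 had a positive r within groups. Their median was 0.295, against -0.029 for members with other genes, and Fbn1 and Fbn2 had the lowest, -0.482. The share of positive r over all gene pairs is not given, and the pairs share genes and arrays, so that count describes the members only.

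**Figure D4:**
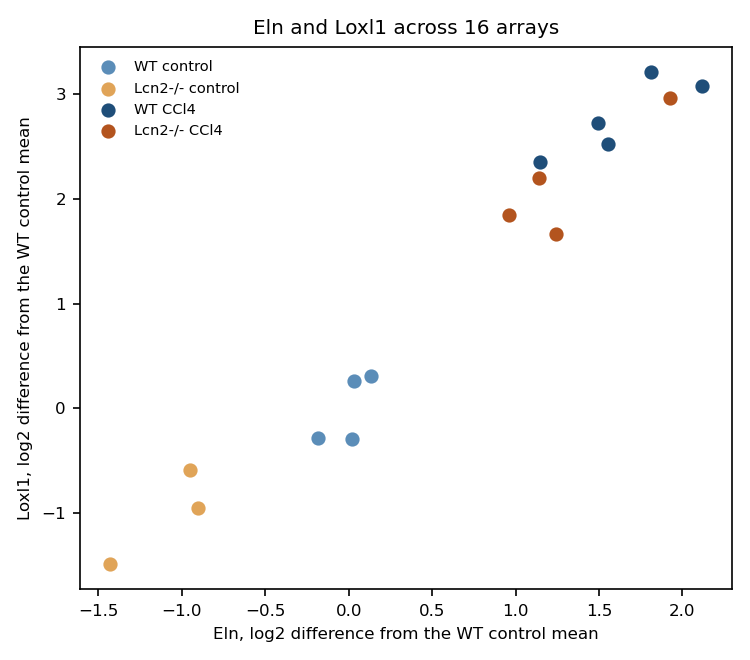
Eln and Loxl1 on each of the 16 arrays, as log2 differences from the WT control mean of each gene, coloured by group. The Lcn2-/- controls lie lowest on both axes and all CCl4 arrays lie above all controls on both.

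Of 5 lysyl oxidases, the enzymes that crosslink elastin, 4 were higher after CCl4 in each genotype, with list medians of 1.41 and 0.91. Loxl1, the family member that acts on elastin with Fbln5, rose by 2.78 ± 0.28 in WT and 3.18 ± 0.31 in Lcn2-/- (adjusted p = 1.85e-05 and 2.85e-05). Loxl2 rose by 1.41 and 1.81 and Loxl3 by 0.59 and 0.91. Lox, 1 of the 4 called in WT, gave 2.34 ± 0.74 there (adjusted p = 0.0438). It was well above background on 1 of 4 WT controls and 5 of 5 WT CCl4 arrays. Lox thus passed the brightness filter mainly through the WT CCl4 arrays, and its call is not read as a measured rise. In Lcn2-/- it measured -0.36 ± 0.84, where 1 of 3 controls and 1 of 4 CCl4 arrays were well above background. Loxl4 gave 0.43 in WT (adjusted p = 0.0654). In Lcn2-/- its controls were all too dim to be measured, and CCl4 arrays stood at least 1.45-fold above them (adjusted p = 0.0245).

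Of 16 tested proteins that associate with microfibrils, 9 were higher in WT and 7 in Lcn2-/-, with medians of 1.14 and 0.86. The latent TGF-beta binding proteins Ltbp2, Ltbp3 and Ltbp1 rose by 3.67, 2.07 and 1.69 in WT and by 3.46, 2.16 and 1.97 in Lcn2-/-, and Fbln7, a short fibulin, by 2.07 and 1.92. Emilin3, the 1 gene of the list that fell and named after its values were seen, fell by 0.93 in WT (adjusted p = 0.0202) and by 0.94 in Lcn2-/- (adjusted p = 0.0457). One gene of this list, singled out after its values were seen, differed by genotype: Adamtsl2, which binds latent TGF-beta binding protein. It measured 8.17 ± 0.42 (SD, n = 4) in WT controls and 6.23 ± 0.15 (SD, n = 3) in Lcn2-/- controls (adjusted p = 0.00141). After CCl4 it measured 9.79 ± 0.30 (SD, n = 5) in WT and 7.96 ± 0.41 (SD, n = 4) in Lcn2-/- (adjusted p = 0.000883). Adamtsl2 rose with CCl4 in both, by 1.62 and 1.74. Its probe, at chr2:26964005-26964064 (mm9), lies 5.28 Mb from that of Lcn2, and the Lcn2-/- line was made in another mouse background before it was backcrossed to BALB/c, so the deletion and any donor DNA kept around it cannot be told apart. All 3 TGF-beta ligands had positive differences, and 2 passed in each genotype: Tgfb3 (2.63 and 2.29) and Tgfb2 (1.19 and 1.45), while Tgfb1 gave 0.48 and 0.70 (adjusted p = 0.152 and 0.08).

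Of 10 genes for proteases that degrade elastin, 5 were higher in WT and 4 in Lcn2-/-, with medians of 1.18 and 1.27. Those of the neutrophil proteases Elane (-0.27 and -0.32) and Prtn3 (-0.65 and -0.87), named after their values were seen, had lower means after CCl4 and did not pass (adjusted p from 0.343 to 0.399). Mmp12, the macrophage elastase, gave 6.19 ± 0.70 in WT, where 2 of 4 controls and 5 of 5 CCl4 arrays were well above background. It passed the brightness filter mainly through CCl4 arrays. WT controls lay at 4.25 to 7.58 and WT CCl4 arrays at 10.96 to 12.70. The lowest control values are below the 5.04 at which signal first counts as well above background there, so 6.19 is not read as a measured size. Against the Lcn2-/- controls, all too dim to be measured, the rise was at least 24.4-fold. Ctsk, the collagen- and elastin-cleaving cathepsin K, rose by 5.38 and 3.45, and the gelatinase Mmp2 by 3.82 and 4.38. Mmp9, 1 of the 5 called in WT, gave 1.64 there (adjusted p = 0.0433) and was too dim to be measured in Lcn2-/- mice. It was well above background on 1 of 4 WT controls and 4 of 5 WT CCl4 arrays. Mmp9 thus passed the brightness filter mainly through the WT CCl4 arrays, and its call is not read as a measured rise. Of 6 protease inhibitors 3 were higher in WT and 1 in Lcn2-/-: Cst3 rose by 0.51 and 0.45, and Timp2 and Timp3 by 1.47 and 0.94 in WT. In Lcn2-/- these last gave 1.20 (adjusted p = 0.056) and 0.66 (adjusted p = 0.185). Of 10 receptors 2 were higher in each genotype, namely Itga8, an integrin chain that binds fibrillin and other ligands (2.58 and 2.51), and Glb1, whose splice form is the elastin receptor (0.45 and 0.66).

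Beside these, 9 tested fibrillar collagen genes, a list added for comparison, had medians of 1.44 and 1.42, with 5 and 4 higher. Col1a1 rose by 3.49 and 4.21, Col1a2 by 2.89 and 2.98 and Col3a1 by 2.64 and 3.20, while Col5a2 rose by 2.25 in WT and gave 1.42 in Lcn2-/- (adjusted p = 0.0877). Fibrillar collagens, like the elastic fibre members, had negative medians in Lcn2-/- against WT, -0.45 in controls and -0.37 under CCl4, with 0 of 9 called in each.

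**Figure D5:**
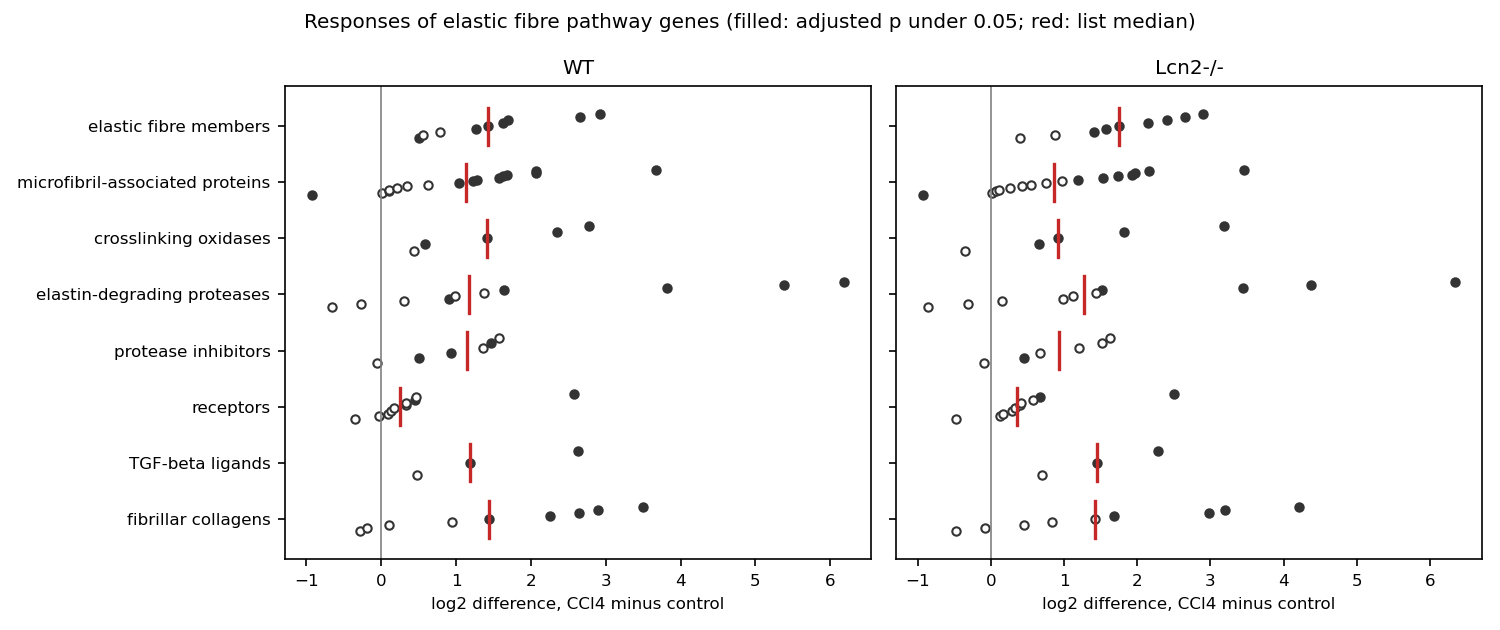
Log2 difference between CCl4 and control for each tested gene of the elastic fibre lists in WT (left) and Lcn2-/- (right); filled points have adjusted p under 0.05 and the red line is the list median. Most lists lie to the right of 0, receptors least so with medians of 0.25 and 0.36. Mmp12, which passed the brightness filter mainly through CCl4 arrays, and Ctsk lie furthest right in WT.

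Promoter sequence was at hand for 6 members (RefSeq, GRCm38.p6). It is shown for the 4 of them that rose in both genotypes, as the 250 bases before the most upstream start in the table, 5′ to 3′ on the gene's strand. Capitals mark GGGCGG, the GC box, and CAGACA, the core of the CAGA box bound by Smad proteins, on either strand; no 2 of these matches overlap in the windows. The windows are chr2:125506439-125506688 (minus) for Fbn1, chr12:101819120-101819369 (minus) for Fbln5, chr4:141010174-141010423 (plus) for Mfap2 and chr5:30913536-30913785 (plus) for Emilin1.
Fbn1: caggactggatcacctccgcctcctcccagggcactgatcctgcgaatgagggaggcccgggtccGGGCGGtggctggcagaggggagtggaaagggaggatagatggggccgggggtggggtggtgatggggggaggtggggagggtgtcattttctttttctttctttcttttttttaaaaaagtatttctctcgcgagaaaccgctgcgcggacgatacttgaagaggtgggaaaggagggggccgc
Fbln5: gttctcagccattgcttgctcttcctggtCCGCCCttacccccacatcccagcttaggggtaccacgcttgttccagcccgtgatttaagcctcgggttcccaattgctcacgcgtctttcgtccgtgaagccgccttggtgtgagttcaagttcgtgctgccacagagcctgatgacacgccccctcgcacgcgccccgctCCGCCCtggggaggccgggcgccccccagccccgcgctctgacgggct
Mfap2: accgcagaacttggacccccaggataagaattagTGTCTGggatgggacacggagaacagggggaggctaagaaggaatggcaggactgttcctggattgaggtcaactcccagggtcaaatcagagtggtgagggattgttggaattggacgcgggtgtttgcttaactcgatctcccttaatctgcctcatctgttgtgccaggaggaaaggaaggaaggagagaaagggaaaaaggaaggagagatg
Emilin1: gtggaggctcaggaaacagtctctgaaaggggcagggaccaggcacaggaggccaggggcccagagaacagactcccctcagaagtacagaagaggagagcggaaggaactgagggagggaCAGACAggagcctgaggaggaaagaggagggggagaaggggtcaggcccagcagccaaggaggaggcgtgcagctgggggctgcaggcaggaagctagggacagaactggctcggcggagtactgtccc
GGGCGG was found in Fbn1 and Fbln5, and also in Fbln2, and in 32.7% of the same windows of all genes. CAGACA was found in Mfap2 and Emilin1, and also in Fbln1, against 17.1% of all windows. TATAAA was found in 0 of the 6 windows and in 12.4% of all. None of these 3 motifs was found in all 4 windows shown, and the matches are letters in these windows, not sites of binding.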

How the data were processed

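The authors labelled liver RNA with Cy3 and hybridised it to 1-colour Agilent mouse arrays. Per the file headers, the deposited files hold spot intensity values from Feature Extraction 10.7.3.1 on a linear scale, after the software's background subtraction. The authors also deposited a table of quantile-normalized log2 values, used as an alternative. Here log2 of the processed signal was quantile normalized over 16 arrays, outlier spots were left out, and spots were averaged per probe. Of 55681 probes 121 were dropped, and 33013 passed the filter, which asked for a spot well above background on 3 arrays or more. The brightest probe stood for each gene, giving 24356 genes. One limma 3.58.1 model (R 4.3.3) of 4 groups gave 5 contrasts, with Benjamini-Hochberg adjustment over all genes and a threshold of 0.05. It was tested on simulated data with independent noise and no slide or row effect, so that test does not bear on the array layout. Exact permutation tests were two-sided. For a probe too dim on every array of a group, a fold is a bound ("at least"): the dim value on an array was raised to the lowest signal well above background there, unless already higher.

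Members, lists and the naming rule (all members; lists of up to 5 genes in full; the top 4 called genes by mean response of longer lists, in absolute size; the 5 genes most like Eln; Lcn2) were chosen with earlier results of these data known. Values of the marker lists for sinusoidal endothelium, mesothelium, cholangiocyte, macrophage, pancreas, skeletal muscle and adipose stand in the closing section. Counts and medians of the mesothelium, cholangiocyte and macrophage markers stand in the Results. Probe positions are those in the files (mm9); exon, intron and UTR were not assigned. RefSeq tables gave symbols for 61.02% of genes tested. The number of arrays limits the precision. Same-numbered WT and Lcn2-/- controls deviated together from their group means (r of 0.233, 0.368 and 0.552 over 3 pairs). Their numbers were therefore taken to pair them, while other groups did not meet that rule. Each such pair also shared a column of its slide, so pairing and column position cannot be told apart. The main fit left the pairing out, and the fit with replicate number as a block applied the numbers to all groups. Alternatives are in the closing section.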

Additional observations from a re-analysis of the deposited data

Results flagged for a closer look

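Of 27 sets of 4 or 5 arrays checked for a value far from the others, 3 stood apart, and chance alone marks about 1 in 20. Fbn1 in WT control replicate 3 was 9.24, and its gap to the nearest array was 0.94 of the range of the group. The same array had the highest Lcn2 signal of all (17.57) and the highest summed portal fibroblast (13.40) and myofibroblast (16.55) markers of the controls. Lcn2-/- CCl4 replicate 2 stood high for Fbn2, at 6.69 (0.921 of the range), and for Fbln2, at 9.90 (0.843 of the range). On that array Mfap5, which entered no comparison, was well above background at 7.07, while it was so on no control array. It also had the highest summed mesothelium markers, 13.30 against 9.65 to 12.79 on the other arrays. Whether these belong together was not tested.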

How the results depend on the processing

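With replicate number as a block, 7 members were called in WT, 8 in Lcn2-/- (Fbln2 added) and 0 in either genotype comparison or the interaction, and no other member's call changed. In that fit 3759 of 24356 genes were called in WT, 46.5% of them higher, and 2964 in Lcn2-/-, 52.9% of them higher. The numbers did not pair the CCl4 arrays with the controls. Array weights called 3 members lower in controls, where no other setting but one called any. Leaving out 1 array at a time gave 6 to 7 calls in WT, 6 to 7 in Lcn2-/-, 0 to 0 under CCl4, 0 to 1 in controls (1 without Lcn2-/- CCl4 replicate 2) and 0 to 0 for the interaction. Over all genes these fits called 2484 to 5070 in WT and 1680 to 3193 in Lcn2-/-. Scaling to the 75th percentile moved the median of all genes to -0.16 in WT and -0.14 in Lcn2-/-, and the share of calls that were higher from 48.2% to 30.8% and from 54.0% to 36.5%; 6 members were called in each. That scaling called 5123 genes in WT and 3236 in Lcn2-/-. Calls over all genes fell from 4063 to 1294 in WT and from 2957 to 426 in Lcn2-/- with slide as a block, and rose to 7005 and 6973 with array weights, which raised the calls between the controls to 1253. Values that were never called changed sign as follows, and the cause was not tested. Emilin1 in controls became 0.108 with array weights and 0.0571 without both control arrays numbered 3, a choice taken from an earlier analysis of these data. The interaction became 0.00381 for Mfap4 with the authors' table, 0.125 for Mfap2 with the mean over probes, and 0.115 for Mfap2 and 0.0530 for Mfap4 with array weights. Leaving out 1 array, Fbln1 under CCl4 ranged from -0.341 to 0.0960, and the interaction from -0.259 to 0.051 for Fbn2, -0.272 to 0.342 for Mfap2 and -0.211 to 0.23 for Mfap4. Fbn2 in WT also missed the threshold with 75th percentile scaling, the authors' table and trended robust variance (adjusted p = 0.21, 0.05 and 0.057), and Fbln1 in Lcn2-/- with 75th percentile scaling and without both control arrays numbered 3 (adjusted p = 0.073 and 0.0998). Fbn2 in Lcn2-/- passed with array weights (adjusted p = 0.0449). The fit without WT CCl4 replicate 1 as a slide comparison was chosen after seeing the data. Dim signal limits Mfap5, well above background on 1 array, and the second probes of Fbn2 and Fbln5, so on 0 arrays.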

Other observations

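Other cell type markers are given as values with no explanation. Summed sinusoidal endothelium markers lay between 15.89 and 16.51 on all arrays. Summed mesothelium markers lay at 9.65 to 11.34 and 10.50 to 10.91 in the controls and at 11.50 to 12.79 and 11.03 to 13.30 after CCl4, cholangiocyte markers at 11.82 to 14.34 and 11.93 to 12.86 against 14.16 to 14.81 and 13.82 to 14.95, and summed macrophage markers had means of 14.93 and 14.97 against 15.72 and 15.38, with Clec4f, the brightest in controls, at a mean of 14.59 in WT controls and 13.56 in WT CCl4. Of pancreas and skeletal muscle markers 2 of 4 and 1 of 3 passed the filter, at 10.14 to 11.44 and 4.02 to 6.57. Of adipose markers 0 of 3 did.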
